A study of Mus musculus with 4 samples.

Results

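Pericytes and vascular smooth muscle cells are the mural cells of blood vessels, and this report is about 10 genes that mark them, measured among 22180 genes in brown adipose tissue, a heat-producing fat. The genes fall in 2 sets of 5. Cspg4, Notch3, Pdgfrb, Rgs5 and Mcam are known from pericytes, and Acta2, Myh11, Tagln, Cnn1 and Des belong to the contractile and cytoskeletal machinery of smooth muscle. The genes were chosen with earlier results of these same arrays known, and for each gene the probe set was selected on its mean over the 4 arrays, which left 10 of 10 genes with a value. The differences between genotypes are therefore described here and support nothing beyond these arrays. Rgs5 had 2 probe sets naming it alone and the other genes had 1.

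Both groups were male C57BL/6 mice aged 4 months on a chow diet. One group of 2 samples was wild type, and the other 2 samples came from mice without Tsku, which encodes tsukushi, a secreted small leucine-rich proteoglycan. The labels describe neither how the allele was made nor which cells lose it. Total RNA of the whole depot was hybridised to 1 whole-transcript array per sample, so fewer mural cells and less of a transcript per mural cell cannot be told apart. Samples of a genotype are labelled as biological replicates without a statement that they are separate animals. The p-values rest on the spread between these samples alone, which limma moves for each gene towards the spread typical of all genes.

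Pericytes wrap capillaries and share a basement membrane with the endothelium. Platelet-derived growth factor B from endothelial cells recruits them through the receptor encoded by Pdgfrb, and Jagged and Delta ligands on neighbouring cells act on Notch3. Arterial smooth muscle uses actin, myosin and their regulators to set vessel tone, and many of its genes are driven by serum response factor (SRF) with myocardin through promoter elements called CArG boxes. In brown fat the capillary bed is dense, and mural cells have been described as a source of adipocyte precursors.

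All values below are log2 expression values as deposited, and they carry an unstated offset, so that levels are compared between arrays for 1 probe set and not between genes. Summed levels of a list, given as antilogs, are the exception, and they weigh the brightest probe sets of the list most. Array medians lay between 0.56 and 0.58. Background was taken on each array as the 95th percentile of 1405 probe sets of smell and pheromone receptors (olfactory and vomeronasal families), at 0.63 to 0.81, and 50.2% to 53.6% of genes lay above it. All 10 mural genes were above background on all 4 arrays. The tissue label was checked on 12 brown fat genes, of which 11 were above background on every array, and Ucp1, the uncoupling protein of brown fat, had a wild-type mean of 9.45 and a knockout mean of 9.997.

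The comparison of knockout with wild type asked which transcripts differ in brown fat that lacks Tsku. The pericyte genes did not differ in 1 direction. Cspg4, Notch3 and Mcam were higher on both knockout arrays than on either wild-type array, by 1.97-fold, 1.93-fold and 1.55-fold, whereas Pdgfrb and Rgs5 had lower means in the knockout. All 5 contractile genes had lower means in the knockout, with Tagln and Des differing most. None of the 10 passed the threshold of an adjusted p under 0.05 (limma, Benjamini-Hochberg over 22180 genes), where 0% of all genes passed. At an unadjusted limma p under 0.05, 3 of the 10 were higher, against 2.89% of all genes, and 1 was lower, against 2.67%. The arrays of the genotypes did not overlap in 3 genes that were higher, against 19.4% of all genes, and in 4 that were lower, against 15.8%.

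Cspg4 encodes the NG2 proteoglycan, a cell surface protein of pericytes that binds growth factors and collagens. It read 2.03 and 1.86 in wild type against 2.83 and 3.02 in the knockout. The wild-type mean was 1.95 ± 0.12 (SD, n = 2), and the knockout mean was 2.92 ± 0.13 (SD, n = 2). The gap between the genotypes was wider than the spread within either, and both knockout arrays stood above both wild-type arrays. The log2 difference was 0.98 (SE 0.19, 95% interval 0.51 to 1.45) with a limma adjusted p of 0.872.

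Notch3, the Notch receptor of mural cells, followed Cspg4 array by array. Its values were 1.74 and 1.43 in wild type against 2.41 and 2.66 in the knockout. The lowest reading was again on wild-type replicate 2 and the highest on knockout replicate 2. Notch3 differed by 0.95 (SE 0.21, 95% interval 0.42 to 1.47, limma adjusted p = 0.872). Without single arrays and under the other settings tried, the difference stayed between 0.79 and 1.10 for Notch3 and between 0.89 and 1.07 for Cspg4.

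Mcam encodes CD146, an adhesion molecule found on pericytes and also on endothelial cells. It read 5.35 and 4.99 in wild type against 5.82 and 5.79 in the knockout. The knockout arrays lay 0.027 apart and the wild-type arrays 0.36 apart. The Mcam difference was 0.63 (SE 0.21, 95% interval 0.13 to 1.14, limma adjusted p = 0.872), and it ranged from 0.45 to 0.82 over the other settings. Since Mcam is also endothelial, the 22 endothelial markers are given beside it. Of these 15 were higher and 7 lower, and the median log2 difference was 0.06. An unadjusted p under 0.05 was found in 0, beside 2.89% of all genes that were higher and 2.67% that were lower. All 22 were above background on every array, and their summed level, as antilogs, was 844 to 953 in wild type and 812 to 1097 in the knockout. Kdr, the main receptor for vascular endothelial growth factor, differed by 0.46 and the transcription factor gene Sox18 by 0.51. The part of endothelial transcripts in the Mcam difference was not tested.

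Pdgfrb, the receptor that recruits pericytes to vessels, ran the other way. It read 5.404 and 4.91 in wild type against 4.62 and 4.87 in the knockout. The arrays did not overlap, but knockout replicate 2 lay just below wild-type replicate 2. Pdgfrb differed by -0.41 (SE 0.24, 95% interval -1.002 to 0.18, limma adjusted p = 0.888). It ran from -0.66 to -0.16 as each wild-type array was left out, the smaller value being without replicate 1.

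Rgs5, a regulator that shortens G protein signalling and is a widely used pericyte marker, read 9.32 and 9.04 in wild type against 8.88 and 9.11 in the knockout. Knockout replicate 2 lay between the wild-type arrays, so the genotypes overlapped. The Rgs5 difference was -0.19 (SE 0.21, 95% interval -0.70 to 0.32, limma adjusted p = 0.925). The other Rgs5 probe set read 4.09 and 3.75 in wild type against 2.55 and 3.54 in the knockout, which is a difference of -0.87, of the same sign and larger, with knockout replicate 1 the low array. On the brighter probe set the difference was -0.05 without wild-type replicate 1.

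**Figure D1:**
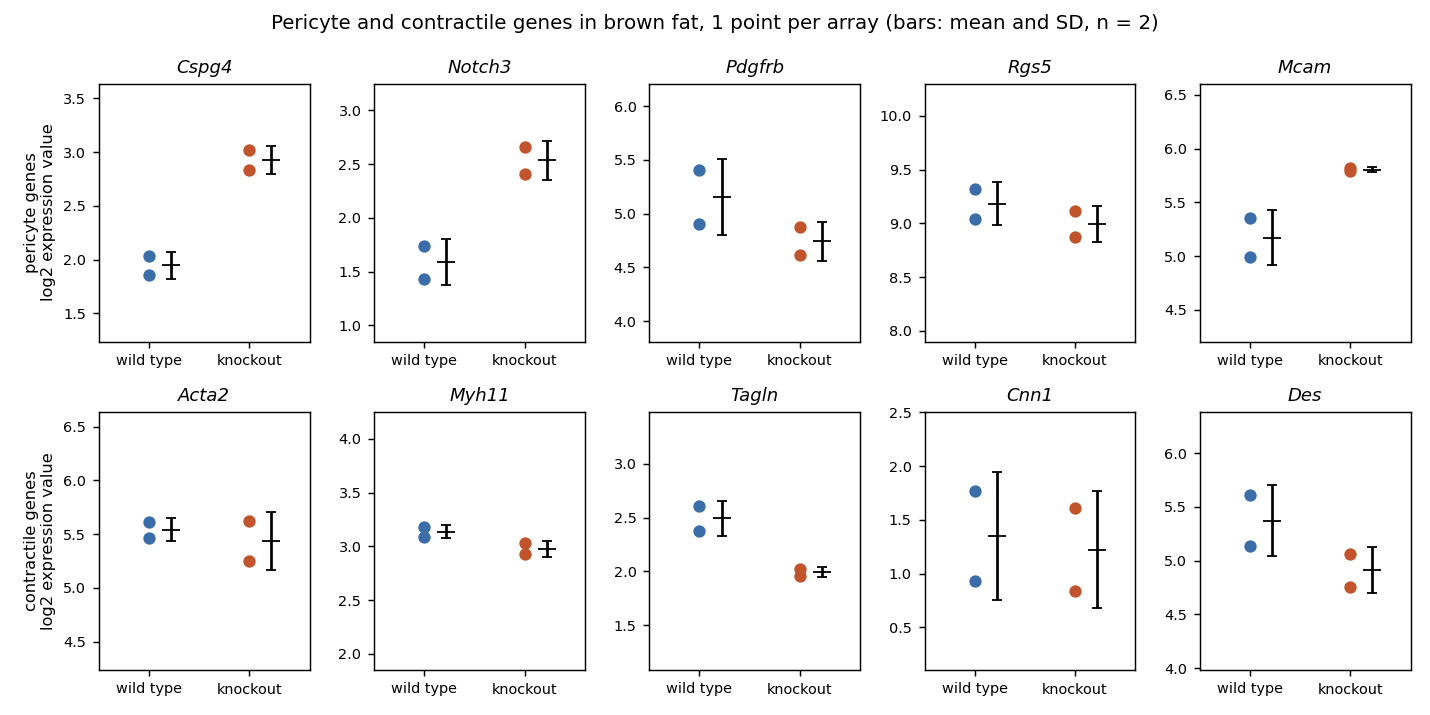
Log2 expression value of the 10 mural genes, 1 panel per gene and 1 point per array, wild type in blue and knockout in orange, with the mean and SD (n = 2) beside each pair of points; every panel spans the same number of log2 units. Cspg4, Notch3 and Mcam show a gap between the genotypes, with Cspg4 at 2.03 and 1.86 against 2.83 and 3.02, and Cnn1 shows a wide spread within both.

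Among the contractile genes Tagln had the smallest p. It encodes transgelin (SM22 alpha), an actin-binding protein of smooth muscle, and read 2.37 and 2.61 in wild type against 1.96 and 2.02 in the knockout. Both knockout arrays were lower than both wild-type arrays. Tagln differed by -0.50 (SE 0.19, 95% interval -0.97 to -0.03, limma adjusted p = 0.872), and it ranged from -0.62 to -0.38 over the other settings.

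Des encodes desmin, an intermediate filament protein of smooth muscle and pericytes that is also abundant in striated muscle. Its values were 5.14 and 5.61 in wild type against 5.06 and 4.76 in the knockout. Wild-type replicate 1 and knockout replicate 1 lay only slightly apart. For Des the difference was -0.46 (SE 0.24, 95% interval -1.05 to 0.13, limma adjusted p = 0.879), and it ran from -0.70 to -0.23 as each wild-type array was left out, the smaller value being without replicate 2.

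Skeletal muscle transcripts were lower in the same knockout samples. Of 24 skeletal muscle markers 23 had lower knockout means, with a median log2 difference of -1.58. An unadjusted p under 0.05 was found in 16, all lower, beside 2.67% of all genes. Their summed level, as antilogs, was 398 to 610 in wild type and 126 to 298 in the knockout, and 15 of the 24 were above background on every array. The fast troponin genes Tnni2 and Tnnc2 differed by -2.25 and -1.82. From highest to lowest the arrays ran wild-type replicate 2, wild-type replicate 1, knockout replicate 1 and knockout replicate 2 in this list, with medians of 1.22, 0.37, -0.27 and -1.11 against each gene's own mean. Des had the same order of arrays, as did 3.69% of all genes, and no other of the 10 mural genes did. The part of skeletal muscle RNA in the Des difference was not tested. With Des taken out, a step added after the values were seen, the median of the contractile genes was -0.14.

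Myh11, the myosin heavy chain of smooth muscle, had a narrow spread within both genotypes. It read 3.18 and 3.09 in wild type against 2.93 and 3.03 in the knockout, so the groups were separated by a narrow gap. Myh11 differed by -0.16 (SE 0.18, 95% interval -0.60 to 0.29, limma adjusted p = 0.930).

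Acta2, the smooth muscle alpha actin, read 5.47 and 5.62 in wild type against 5.25 and 5.63 in the knockout. The highest and the lowest value were both in the knockout, and the groups overlapped. For Acta2 the difference was -0.10 (SE 0.21, 95% interval -0.63 to 0.42, limma adjusted p = 0.956), and it turned to 0.09 without knockout replicate 1. Other actin genes are nearly identical to Acta2 in coding sequence, and probes can be shared among them. The skeletal actin gene Acta1 read 6.06 and 6.49 in wild type against 4.88 and 3.85 in the knockout, while the cardiac actin gene Actc1 and the enteric smooth muscle actin gene Actg2 were below background on all 4 arrays. Acta1 was at its lowest value on knockout replicate 2, where Acta2 read 5.63, close to its 5.62 on wild-type replicate 2. The part of shared probes in the Acta2 values was not tested.

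Promoter windows of RefSeq (GRCm38.p6, 250 bases before to 50 after the start) were searched for 7 of the 10 genes. These were Cspg4, Notch3, Rgs5, Mcam, Acta2, Cnn1 and Des, while Pdgfrb, Myh11 and Tagln were not searched. The search left out windows of mural genes on 1 chromosome, whereas the count over all windows kept that chromosome. A CArG box, whose middle 6 bases are all A or T, was in 0 of these 7 windows and in 1.63% of the 32851 windows of the table. With at most 1 G or C allowed among the middle bases, a form added after the values were seen, Acta2 had 2 matches, the other 6 genes had 0, and 9.98% of all windows had at least 1. The motif TGGGAA, the core bound by the Notch partner RBPJ and searched on both strands, was in the Acta2 window alone, against 25.6% of all windows, and it overlaps the second CArG-like match. The Acta2 stretches are shown because Acta2 alone of the 7 genes had matches, with each match in capitals, 5′ to 3′ on the strand of the gene, which is the minus strand. They lie at chr19:34255438-34255467, chr19:34255388-34255417 and chr19:34255383-34255412, with the matches beginning 84, 34 and 27 bases before the start.
Acta2 first CArG-like match: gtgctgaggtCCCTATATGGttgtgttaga
Acta2 second CArG-like match: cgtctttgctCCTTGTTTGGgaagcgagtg
Acta2 TGGGAA match: ttgctccttgttTGGGAAgcgagtgggagg
A match is a description of the letters, and a window without one says nothing about the factor.

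Cnn1, which encodes calponin, an actin-binding brake on smooth muscle myosin, was the most variable. It read 1.77 and 0.93 in wild type against 0.84 and 1.61 in the knockout. Each genotype held 1 high and 1 low array. The log2 difference of -0.13 (SE 0.38, 95% interval -1.05 to 0.79, limma adjusted p = 0.968) was smaller than the spread within either genotype, and it turned to 0.29 without wild-type replicate 1 and to 0.26 without knockout replicate 1.

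**Figure D2:**
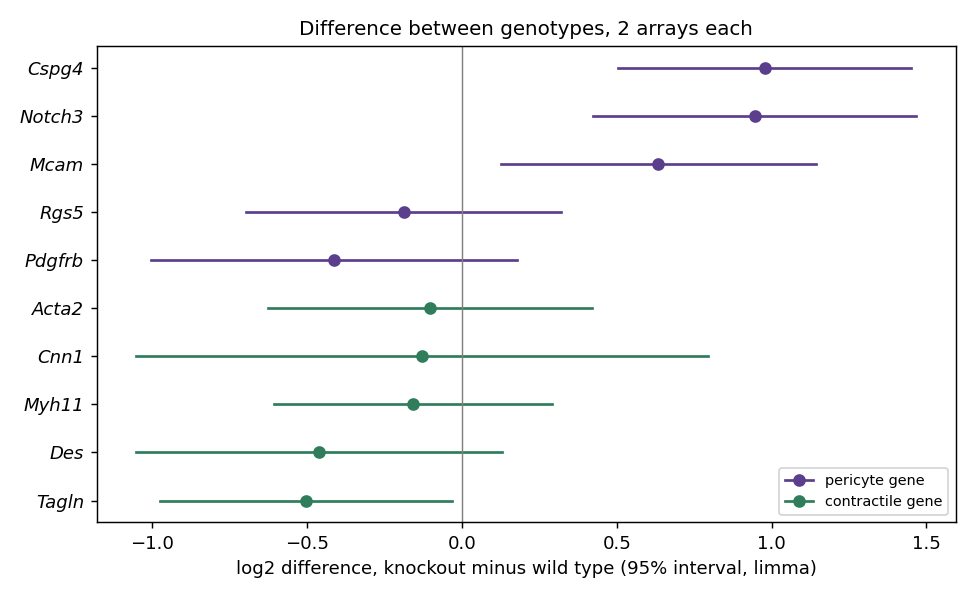
Log2 difference between knockout and wild type for the 10 mural genes (points) with the 95% interval of limma (lines), pericyte genes in purple and contractile genes in green. The intervals of Cspg4, Notch3 and Mcam lie above 0 and that of Tagln lies below 0 (-0.97 to -0.03), while the other 6 include 0.

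Set against each other, the 5 pericyte genes had a median log2 difference of 0.63 and the 5 contractile genes one of -0.16, beside 0.02 for all 22180 genes. The first is the value of Mcam and the second that of Myh11, the middle genes of their sets, and the contractile median was -0.31 without knockout replicate 2. The contractile median was therefore 0.79 below the pericyte median (-0.79 as contractile minus pericyte). The means of the sets, 0.39 and -0.27, lie closer together because Pdgfrb and Rgs5 pull the pericyte mean down. On each array, the mean of the contractile genes minus the mean of the pericyte genes, each gene set against its own mean over the 4 arrays, was 0.18 and 0.49 in wild type against -0.34 and -0.32 in the knockout. The genotypes did not overlap on this score, which is built from genes chosen with earlier results of these arrays known. Among the pericyte genes its sign rests on Cspg4, Notch3 and Mcam, since Pdgfrb and Rgs5 took the same direction as the contractile genes.

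Within wild type the pericyte genes also differed. All 5 read lower on wild-type replicate 2 than on wild-type replicate 1, by 0.18 for Cspg4, 0.31 for Notch3, 0.50 for Pdgfrb, 0.28 for Rgs5 and 0.36 for Mcam. In the knockout, 4 of the 5 read lower on replicate 1 than on replicate 2, Mcam being the exception. The contractile genes had no such common order in wild type. There Acta2, Tagln and Des were higher on replicate 2, and Myh11 and Cnn1 were higher on replicate 1. In the knockout Acta2, Myh11, Tagln and Cnn1 also read lower on replicate 1 than on replicate 2, and Des read higher. The order was not particular to the pericyte genes. Endothelial markers had it in their array medians, at 0.06 and -0.08 in wild type against -0.19 and 0.26 in the knockout. The 21 further pericyte genes described below had 0.19 and -0.15 against -0.23 and 0.10. The skeletal muscle list ran the other way within both genotypes.

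**Figure D3:**
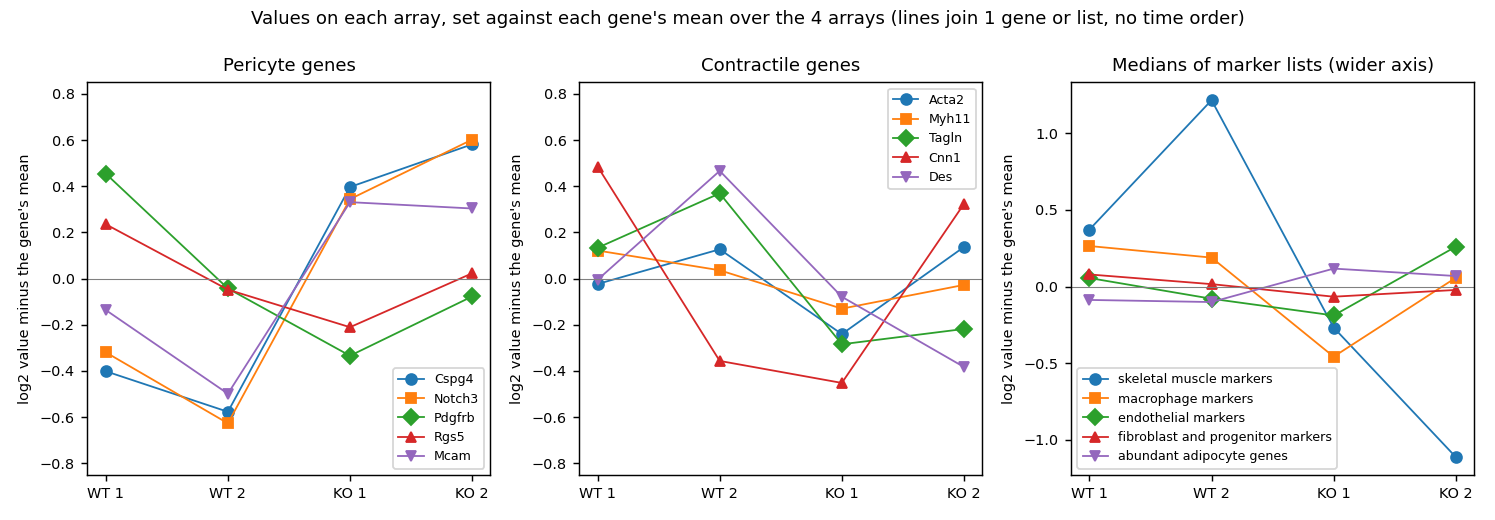
Log2 values on the 4 arrays, each set against the gene's own mean, for the pericyte genes (left), the contractile genes (middle) and the medians of 5 marker lists of other cell types (right, on a wider axis); the lines join values of 1 gene or list and imply no order in time. Cspg4, Notch3 and Mcam lie above 0 on both knockout arrays, Pdgfrb and Rgs5 are highest on wild-type replicate 1, and the skeletal muscle median runs from 1.22 on wild-type replicate 2 to -1.11 on knockout replicate 2.

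Further pericyte genes were taken from a list of 22, of which Ednra had no value. Of the 21 measured, 9 had higher and 12 lower means in the knockout, and the median log2 difference was -0.02. None passed the threshold, and 0 were higher and 1 was lower at an unadjusted p under 0.05, beside 2.89% and 2.67% of all genes. The arrays of the genotypes did not overlap in 2 genes that were higher and 4 that were lower of the 21, beside 19.4% and 15.8% of all genes. The median turned to 0.27 without knockout replicate 1 and was -0.21 without wild-type replicate 2. The gene with the smallest p was Angpt1, the mural cell ligand that stabilises vessels through the receptor Tek. It read 5.78 and 5.75 in wild type against 5.22 and 5.14 in the knockout, which is a difference of -0.58 (SE 0.18, limma adjusted p = 0.872). Vtn, which encodes the matrix protein vitronectin and is made by pericytes and by liver, read 2.82 and 2.65 in wild type against 3.07 and 3.40 in the knockout, a difference of 0.50. Of 19 liver genes 18 were higher in the same knockout samples, with a median of 0.35, though 9 of the 19 were above background on every array and 3 on none. Their array medians were -0.16 and -0.25 in wild type against 0.38 and -0.03 in the knockout, so knockout replicate 1 was the high array, whereas Vtn was highest on knockout replicate 2. The part of liver RNA in Vtn was not tested.

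The transcription factor gene Tbx2 lay below background on both knockout arrays, and on wild-type replicate 2 it read 0.84 beside a background of 0.77. Its fold bound for wild type over knockout, set against background, was 1.24 as a point value. The 95% interval of its log2 difference of -0.41 included 0 (-0.95 to 0.13). Trpc6, a cation channel gene, lay below background on wild-type replicate 2 and on both knockout arrays, at 1.57 and 0.39 in wild type against 0.17 and 0.54 in the knockout, and the genotypes overlapped. Abcc9 and Kcnj8, which form the potassium channel that marks pericytes in many tissues, differed by -0.02 (95% interval -0.51 to 0.48) and 0.004 (-0.82 to 0.83); these 2 genes were picked with their values known.

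Of 30 further contractile genes 15 were higher and 15 lower, with a median log2 difference of 0.004, which turned to -0.16 without wild-type replicate 2. None passed the threshold, and 3 had an unadjusted p under 0.05, all lower in the knockout, beside 2.67% of all genes. Pdlim3, which encodes a Z-disc protein of muscle, read 3.20 and 3.33 in wild type against 2.30 and 2.04 in the knockout, a difference of -1.10 (SE 0.20, limma adjusted p = 0.872). Tpm1, a tropomyosin gene of smooth and striated muscle, differed by -0.47, and Ldb3, another Z-disc gene, by -0.66, with 1 of 2 knockout arrays above background. Cnn2, the calponin of non-muscle cells, read 3.09 and 2.60 in wild type against 1.47 and 2.51 in the knockout, a difference of -0.86 that came mainly from knockout replicate 1. Pdlim3, Tpm1, Ldb3, Hspb6 and Pdlim7 had the order of arrays of the skeletal muscle list, 5 of the 30, where 3.69% of all genes had it. Whether skeletal muscle RNA gave these differences was not tested.

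Notch signalling beyond Notch3 showed no common shift. Of 19 ligands, receptors, cofactors and targets 9 were higher and 10 lower, with a median log2 difference of -0.03. An unadjusted p under 0.05 was found in 0, beside 2.89% of all genes that were higher and 2.67% that were lower. Dll1, a ligand, differed by -0.42, Notch2, a receptor also used by smooth muscle, by 0.33, and the coactivator gene Maml2 by -0.30. Hey2, a target of Notch in arteries, read 2.65 and 2.62 in wild type against 1.58 and 2.62 in the knockout, a difference of -0.54 that rests on knockout replicate 1.

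The 5 other genes of the platelet-derived growth factor system had a median log2 difference of -0.30, with 1 higher and 4 lower. An unadjusted p under 0.05 was found in 0, beside 2.89% of all genes that were higher and 2.67% that were lower. Pdgfb, the ligand of Pdgfrb, read 4.46 and 4.67 in wild type against 3.34 and 4.76 in the knockout. Knockout replicate 1 was low and knockout replicate 2 was above both wild-type arrays, so the difference of -0.51 (95% interval -1.62 to 0.60) came from 1 array. Pdgfrb was also at its lowest on knockout replicate 1. Pdgfc differed by 0.44, Pdgfd, another ligand of Pdgfrb, by -0.33, and Pdgfa by -0.30.

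Of 18 genes for SRF, myocardin and their partners 5 were higher and 13 lower, with a median log2 difference of -0.26. An unadjusted p under 0.05 was found in 2, both lower, beside 2.67% of all genes, and 0 passed the threshold. Srf itself read 3.78 and 3.97 in wild type against 2.73 and 3.51 in the knockout, a difference of -0.76 (SE 0.29, limma adjusted p = 0.872). Klf4, a transcription factor that represses contractile genes, read 2.60 and 2.40 in wild type against 1.13 and 1.86 in the knockout, a difference of -1.01 (SE 0.28, limma adjusted p = 0.872). Both genes were lowest on knockout replicate 1. Elk1, an SRF partner, differed by -0.38 and Gata6 by 0.50, with 1 of 2 wild-type arrays of Gata6 above background. Myocd, the gene of myocardin, was below background on all 4 arrays.

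Of 18 genes for signals between endothelium and mural cells 10 were higher and 8 lower, with a median log2 difference of 0.16. None passed the threshold, and 3 had an unadjusted p under 0.05, all higher in the knockout, beside 2.89% of all genes. S1pr3, a sphingosine-1-phosphate receptor of vascular smooth muscle, read 2.33 and 2.31 in wild type against 2.83 and 2.93 in the knockout, a difference of 0.56 (SE 0.18, limma adjusted p = 0.872). Tgfbr1, the type I receptor for transforming growth factor beta, read 3.08 and 2.79 in wild type against 3.35 and 3.76 in the knockout, a difference of 0.62. Tgfb2, one of its ligands, differed by 0.45, with 1 of 2 wild-type arrays above background, and Ece1, the enzyme that activates endothelin, by 0.29.

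**Figure D4:**
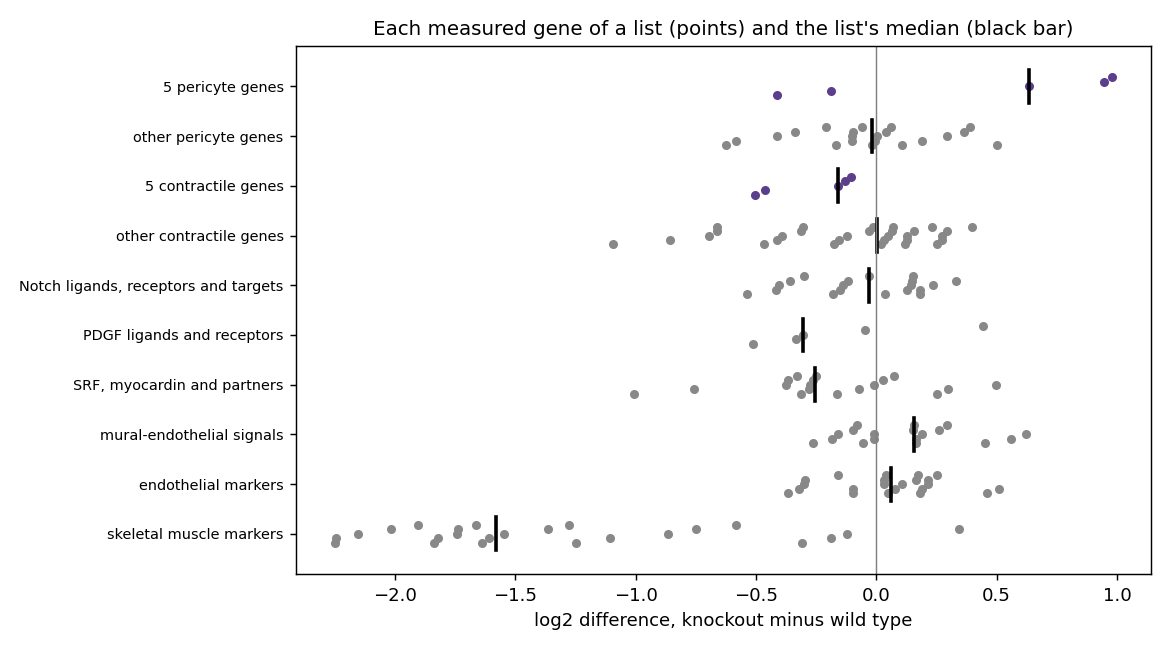
Log2 difference between knockout and wild type (horizontal axis) for each measured gene of 10 lists, 1 point per gene, with the list's median as a black bar; the 5 pericyte and 5 contractile genes are in purple. The 5 pericyte genes split around a median of 0.63, the 21 further pericyte genes centre on -0.02, and the skeletal muscle markers centre on -1.58.

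Markers of other cells that the depot holds were measured in the same samples. Of 14 fibroblast and progenitor markers 3 were higher and 11 lower (median -0.14), Col1a1 differing by -0.33 and Pi16 by -0.45. Macrophage markers had a median of -0.41 with 16 of 19 lower, and the 2 with the smallest p were Ctss at -1.12 and Aif1 at -0.48. Their array medians were 0.26 and 0.19 in wild type against -0.46 and 0.06 in the knockout, so knockout replicate 1 was the low array. Among the mural genes it was the lowest array for Pdgfrb, Rgs5, Acta2, Myh11, Tagln and Cnn1, but not for Cspg4, Notch3, Mcam and Des. The medians of the endothelial and further pericyte lists were lowest there too, at -0.19 and -0.23. The share of all genes with that low array was not counted. Abundant adipocyte genes had a median of 0.15 with 12 of 15 higher, among them Agpat2 at 0.80 and Plin4 at 0.36. Schwann cell and mesothelial markers had medians of 0.001 over 11 genes and 0.08 over 8. Sox10 in the first and Msln and Wt1 in the second were below background on all 4 arrays, and only 5 of 11 and 1 of 8 markers were above it on every array. The part of these cells in the differences was not tested.

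The genes whose values over the 4 arrays lay nearest to the mean profile of the 5 contractile genes were Tbck, Pip4p2, Vrk1, Chd1 and Rida, by the root mean square difference after centring each gene. That distance was 0.016 to 0.022 log2 units over the 4 arrays, among 9495 genes above background on every array. Myh11 lay 0.071 from the profile, Acta2 0.12, Tagln 0.15, Des 0.27 and Cnn1 0.36. Rgs5 at 0.10 was nearer than all of these but Myh11, and Pdgfrb at 0.19 was nearer than Des and Cnn1. Cspg4, Notch3 and Mcam were 0.63, 0.62 and 0.48 away. The profile itself only ran from 0.14 on wild-type replicate 1 to -0.24 on knockout replicate 1, so genes that vary little also lie near it. The 5 contractile genes are part of the profile they were measured against.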

How the data were processed

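Per the labels, biotin-labelled cDNA from total RNA was hybridised to whole-transcript arrays, 1 for each of 4 samples. The authors deposited normalized log2 values for 41345 probe sets in 1 table. The submitters' processing notes name the tools RMA, oligo and limma; their roles, versions and the genome build are not given in the sources used here. Base 2 is assumed, being that of RMA. RMA can pull dim probe sets together, so differences of dim genes may be understated, which was not tested here.

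Probe sets with 1 symbol in the platform annotation (23521; 1814 had several and 16010 none listed) were kept, and the brightest probe set stood for each gene. All 10 members matched the reference table by Entrez ID. The genotypes were compared with limma 3.58.1 (R 4.3.3; lmFit and eBayes, two-sided, no block), with Benjamini-Hochberg adjustment over all 22180 genes. Residual degrees of freedom were 2 and prior degrees of freedom 3.96. The fit was tested on simulated data. Fold bounds compare the measured genotype's mean with, on each dim array, the higher of its background and the probe set's value. List genes with up to 4 of the smallest p (up to 2 for other cell types) were named, with Acta1, Actc1, Actg2 and the 5 nearest profiles; Ucp1, Myocd, Abcc9, Kcnj8, Hspb6, Pdlim7, Sox10, Msln and Wt1 were chosen after their values were seen. Members, lists and rules were chosen with earlier results of these data known. Alternatives covered a replicate block, a filter on dim genes, the choice of probe set, normalization, variance priors, array weights and each sample left out. The number of arrays limits the precision.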

Additional observations from a re-analysis of the deposited data

How the results depend on the processing

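Cspg4, Notch3 and Mcam stayed higher, and Pdgfrb, Rgs5, Myh11, Tagln and Des stayed lower, in all settings tried. All of these but Rgs5 had genotypes that did not overlap, so leaving out 1 sample could not change their sign. The block, the filter on dim genes, the priors and the array weights left each difference unchanged, and the choice of probe set acted on Rgs5 alone. Only the repeated normalizations could have turned the others. With all 4 arrays kept, no adjusted limma p was under 0.05 for any of the 10. Without knockout replicate 1 Acta2 turned to 0.085 (-0.29 to 0.085 over single samples left out) and Cnn1 to 0.26, and without wild-type replicate 1 Cnn1 was 0.29 (-0.55 to 0.29). The pericyte median ran from 0.45 to 0.82 and the contractile minus pericyte difference from -0.99 to -0.68. Leaving out single samples moved the contractile median between -0.31 and -0.11, that of the 21 further pericyte genes between -0.21 and 0.27, and that of the 30 further contractile genes between -0.16 and -0.017; the last was -0.075 with dim genes left out. The count of all genes past the threshold was 1 with replicate number as a block, 1 with a mean trend in the prior, and 0 to 15 without single samples (15 with wild-type replicate 1 left out, 2 with wild-type replicate 2 left out). Nothing in the labels pairs samples by number, deviations of same-numbered samples from their genotype's mean correlated at -0.073 across genes (which are not independent), and the replicate block changed the call of no mural gene. The causes were not tested.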
